A study of Mus musculus with 3 samples.

Results

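Endothelial cells line the blood and lymphatic vessels of the vomeronasal organ (VNO), the pheromone-sensing organ at the base of the nasal septum. They were taken from 3 single-cell RNA-seq libraries of male mice. A barcode was kept when it held 200 to 9000 genes, at least 1000 unique molecular identifiers (UMIs, each counting 1 captured mRNA) and at most 10% of UMIs from mitochondrial genes. A kept barcode was called endothelial when Cldn5, Egfl7, Flt1 and Emcn together gave at least 5 UMIs and at least 0.1% of its UMIs, with at least 2 of these genes detected, and when C1qa, C1qb and C1qc together gave at most 0.1%. Of 27359 barcodes, 13353 were kept and 634 were endothelial.

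The groups were 1 library each. The P10 control library came from mice heterozygous for OMPCre at postnatal day 10. The P10 mutant library came from OMPCreR26AP2e double heterozygous mice of the same age, and the 3-month mutant library from adult mice of that double heterozygous genotype. All 3 groups carried the OMPCre allele and a mixed C57 BL/6J 129P2/OlaHsd background. Omp is a gene of mature olfactory and vomeronasal neurons, so that Cre is driven in neurons and not in endothelium, and the R26AP2e allele carries Tfap2e, a transcription factor gene of basal vomeronasal neurons. The number of animals pooled per library was not given, and a 3-month control library was not analysed here. Genotype and library, and age and library, therefore cannot be told apart, no test between groups could be made, and every difference below compares libraries.

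Endothelium forms the barrier between blood and tissue and differs along the vascular tree. Arterial cells carry Notch ligands and gap junction connexins, capillary cells exchange solutes and fatty acids, venous cells carry the adhesion molecules that leukocytes use to leave the blood, and lymphatic cells drain fluid and secrete the chemokine Ccl21a. In growing vessels, tip cells lead new sprouts under VEGF and are known for Esm1 and Apln. The VNO of rodents holds a large blood vessel and a venous plexus along its lumen, which act as a pump that draws in stimuli.

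Members numbered 132 of 4305 kept barcodes in the P10 control, a share of 3.07% with an exact binomial 95% interval of 2.57 to 3.63%. The P10 mutant held 184 of 3741, or 4.92% (4.25 to 5.66%), and the 3-month mutant 318 of 5307, or 5.99% (5.37 to 6.67%). The intervals of both mutant libraries lay above that of the control. All intervals given here cover counting error only and not the spread between animals or dissociations.

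The members held 1943071, 3244895 and 3392432 UMIs in the P10 control, P10 mutant and 3-month mutant. Their median depth was 9002, 12643 and 8258 UMIs per cell, beside 11670, 11248 and 8096 in the remaining kept cells. The rule asks for a number of UMIs, which a deeper cell meets more easily, and for a share of UMIs, which depth does not ease. The part of depth in the endothelial shares was not tested. No member barcode was shared between libraries.

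The 4 genes of the rule are a description of the choice and no finding. All 4 were detected in 91, 139 and 229 members of the P10 control, P10 mutant and 3-month mutant, and their median sum was 43, 42.5 and 39 UMIs. Just inside the UMI limit, 11, 6 and 6 members held 5 or 6 rule UMIs. Another 24, 18 and 14 kept cells held 4, counted whether or not they met the other limits of the rule. The C1q limit removed 1, 4 and 9 cells.

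The label was checked against 28 endothelial genes outside the rule, among them the junction proteins Pecam1 and Cdh5 and the VEGF receptor Kdr. Each of the 28 was over 5-fold higher in members than in the remaining cells of the same library, with a median ratio of 172, 127 and 96.6 and a lowest ratio of 12.9, 8.74 and 8.70. Cdh5 stood at 854, 730 and 500 CPM in the members, where CPM (counts per 1000000) is the share of a gene among all UMIs summed over the members of a library. The angiopoietin receptor Tek stood at 157, 156 and 166 CPM. None of the 28 was at 0 in any library, so the name endothelial cells was kept.

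**Figure D1:**
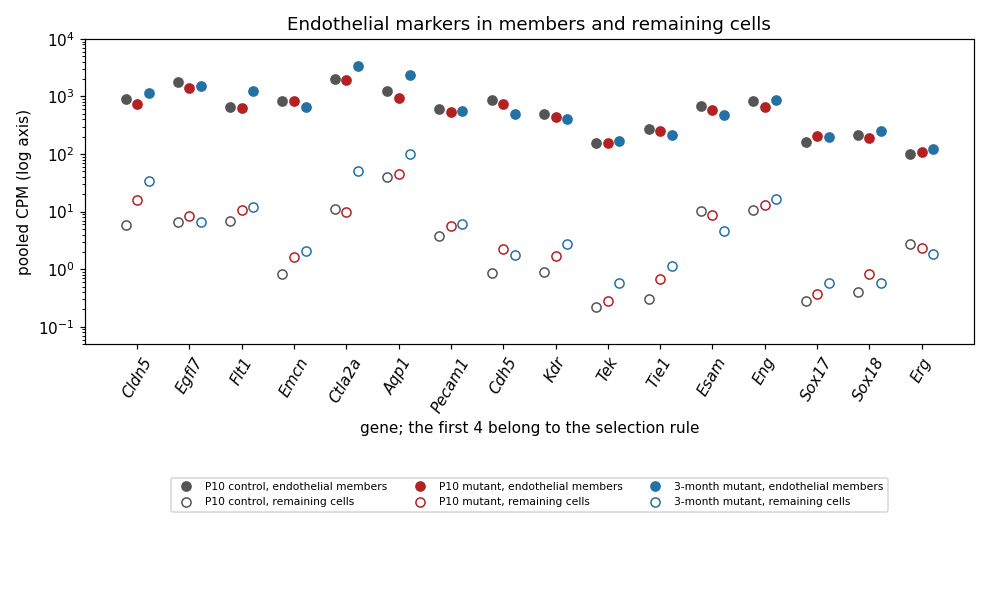
Pooled CPM (log axis) of 16 endothelial genes in the members (filled points) and in the remaining kept cells (open points) of each library; the first 4 genes belong to the selection rule. Every filled point lies above the open points of its gene, with Tek at 157, 156 and 166 CPM in the members.

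Markers of 11 other cell types were read in the same cells. Summed mural markers (pericytes and smooth muscle, 9 genes) stood at 1123, 796 and 347 CPM in the members of the P10 control, P10 mutant and 3-month mutant. Epithelial and gland markers stood at 587, 435 and 1189 CPM, neutrophil markers at 965, 447 and 427 CPM, and osteoblast markers at 537, 75.8 and 46.6 CPM. In 26, 16 and 29 members, the markers of at least 1 other type exceeded 0.5% of UMIs, and no doublet caller was run. These levels moved with the groups, and their part in the differences below was not tested except where the cells holding them were left out.

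Clustering of the 634 members gave 11 clusters, which were named only from vessel markers and only as resembling a type. Among them were a tip-like cluster, a venous-like cluster, an arterial-like cluster, a capillary-like cluster and a pair of lymphatic-like clusters. The tip-like cluster (45 cells, led by Col13a1, Esm1 and Rgcc) and the venous-like cluster (43 cells, with Apoa1, Pf4 and Procr in front) held cells of the P10 libraries only. The arterial-like cluster of 28 cells was led by Gkn3 and Fbln2 and held cells of all 3 libraries. In the capillary-like cluster, 134 of 135 cells came from the 3-month library. There, 4 capillary markers were at least 2-fold above the other members, but so were 5 epithelial and gland markers. The capillary-like name was kept because no epithelial or gland marker was among its leading genes. These names turned with the clustering: at a finer resolution (Leiden 1.2 against 0.8) the capillary-like name went to 14 P10 control, 32 P10 mutant and no 3-month cells and the venous-like cells included 27 of the 3-month library, and at a coarser one (0.5) no tip-like, venous-like or capillary-like cluster was found. A cluster of 42 cells was led by mural genes (Rgs5, Acta2) and another of 26 cells by epithelial genes (Ltf, Reg3g), and each was treated as mixed. The mural-led cluster held 24 of 132 P10 control members, 11 of 184 P10 mutant members and 7 of 318 members at 3 months. At the coarser resolution, 98 of 318 3-month members took a mixed name from epithelial and gland markers, against 17 at the main one. At a mitochondrial limit of 5%, 65 of 258 3-month members took a mixed name from fibroblast markers.

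Another 3 clusters stayed unnamed. Cluster 1, the largest at 143 cells, was led by Stmn1 and Hmgb2 and held 55 P10 control, 84 P10 mutant and 4 3-month cells. In it, 17 cell cycle markers were at least 2-fold above the other members, but cell cycle markers were not used for naming. Cluster 8 (69 cells, led by Igha and Jchain, immunoglobulin genes) and cluster 9 (54 cells, led by Coch and Ptgs2) came from the 3-month library alone. Venous markers at least 2-fold above the other members numbered 6 in cluster 8 and 4 in cluster 9, against 3 in the venous-like cluster. Both stayed unnamed because no venous marker was among their leading genes. The venous-like name therefore does not cover all cells with venous markers. Since most clusters divided by age, with 1 library at 3 months, a cluster of that library may reflect the library, and cluster sizes were not compared between ages.

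**Figure D2:**
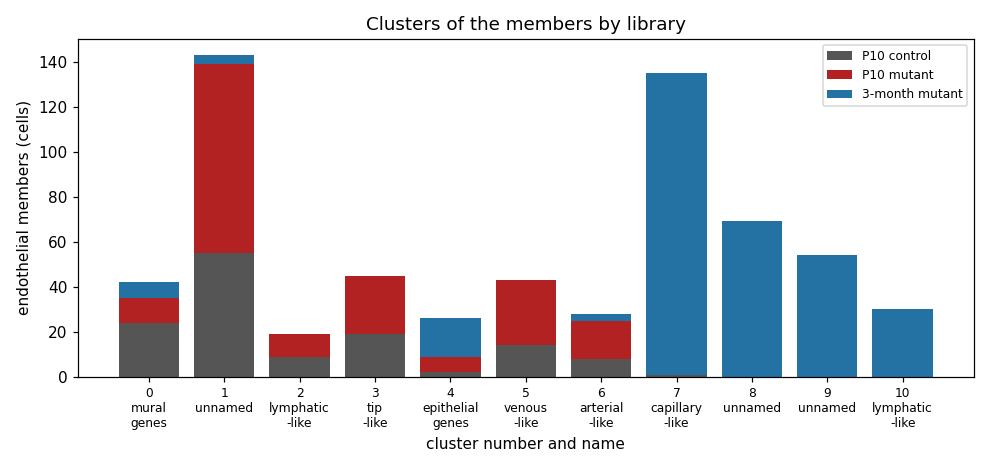
Number of endothelial members (y axis, cells) in each of the 11 clusters (x axis), stacked by library. Clusters 7 to 10 are almost wholly 3-month cells and clusters 1 to 3, 5 and 6 mostly P10 cells, with 134 of 135 capillary-like cells from the 3-month library.

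The lymphatic-like cells were the class whose count did not depend on how finely the cells were clustered. They made up 9 of 132 P10 control members, 10 of 184 P10 mutant members and 30 of 318 members at 3 months. The shares were 6.82% (3.17 to 12.6%), 5.43% (2.64 to 9.77%) and 9.43% (6.46 to 13.2%), and these intervals overlapped. Ccl21a stood at 10023, 16181 and 24902 CPM in these cells, and the lymphatic master regulator Prox1 at 215, 625 and 604 CPM.

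At P10, several heat shock genes and genes of dividing cells were higher in members of the mutant library than in those of the control library. The general endothelial genes stayed under 2-fold. Both groups were a small part of the genes past 2-fold, and the cell cycle difference varied between clusters and with thinning. Of 10928 genes with at least 20 UMIs over both libraries, 295 were at least 2-fold higher in the P10 mutant (2.7%) and 252 at least 2-fold lower (2.31%), with a median log2 ratio of -0.01. None of the 28 pan-endothelial genes outside the rule passed 2-fold, and their median was -0.11. Lists are given below by the number of genes past 2-fold and their median log2 ratio, to be read against these shares, since no test was possible.

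Hspa1a and Hspa1b, neighbouring genes of the inducible HSP70 chaperone, ranked first among the genes named by rule as higher in the P10 mutant, that is by the lower bound of the ratio among well-counted genes. Hspa1a (chr17:34969190-34972156, GRCm38, minus strand) stood at 147 CPM in control members, 950 CPM in P10 mutant members and 398 CPM at 3 months. The P10 mutant was 6.48-fold higher than the control (95% interval 5.74 to 7.34), against 1.63-fold in the remaining cells, 1.40-fold in fibroblasts and 1.22-fold in macrophages of the same libraries. Fibroblasts and macrophages were chosen by their summed matrix genes and C1q genes.

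Hspa1b stood at 187, 868 and 321 CPM, a P10 ratio of 4.63 (4.15 to 5.18) beside 1.69 in the remaining cells. As the coding parts of these genes are near-identical, reads could be split between them. Hsph1, a cochaperone that exchanges nucleotide on HSP70, stood at 38.1, 154 and 38.6 CPM, a P10 ratio of 4.04 (3.16 to 5.23). Its ratio was 1.58 in the remaining cells, 1.83 in fibroblasts and 1.86 in macrophages. Hsp90aa1, the inducible HSP90, stood at 400, 913 and 387 CPM, a P10 ratio of 2.28 (2.11 to 2.47) against 1.05 in the remaining cells. In all 4 genes the P10 mutant stood above both other libraries.

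In cells thinned to 2000 UMIs, Hspa1a was detected in 16.8%, 31.8% and 30.2% of members of the P10 control, P10 mutant and 3-month mutant. Fibroblasts of the same libraries gave 44.0%, 51.2% and 53.1%, so the control members were the group with the lowest share. Within cluster 1, Hspa1a stood at 114 CPM among control cells and 1161 CPM among P10 mutant cells, and in the tip-like cluster at 29.3 and 122 CPM. The venous-like cells held 347 and 1347 CPM and the arterial-like cells 340 and 1354 CPM. The lymphatic-like cells held 53.7 and 31.3 CPM of Hspa1a, on 5 and 4 UMIs, and no difference in this gene was detectable there at this depth.

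Other early response genes, which tissue dissociation is known to raise, differed less. Of 23 early response and heat shock genes, the 4 named above were past 2-fold higher and none lower, with a median of 0.48 in the members and 0.14 in the remaining cells. Fos stood at 2687, 3747 and 5184 CPM, a P10 ratio of 1.39 (1.35 to 1.44). Within classes the list varied. In the lymphatic-like cells 11 of 21 of its genes were at least 2-fold higher in the P10 mutant and none lower, with a median of 1.19, where 9.68% of all genes tested in that class were higher and 6.4% lower. In the arterial-like cells 3 of 23 were higher and 4 lower, with a median of -0.27, where 9.12% of all genes were higher and 4.47% lower. Hspa4l, another HSP70 family member outside the list, stood at 25.7, 65.0 and 32.7 CPM, a P10 ratio of 2.53 (1.85 to 3.51).

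Genes of dividing cells were the other group with many members past 2-fold. Of 24 cell cycle genes, 8 were at least 2-fold higher in the P10 mutant and none lower, with a median of 0.44 beside -0.14 in the remaining cells. Ccnb2, a cyclin of mitosis, stood at 12.4, 41.9 and 1.77 CPM, a P10 ratio of 3.39 (2.19 to 5.48). Cdc20, which activates the anaphase-promoting complex, stood at 9.26, 30.2 and 2.65 CPM, a P10 ratio of 3.26 (1.96 to 5.73). Mki67, the proliferation marker, stood at 25.7, 53.6 and 5.01 CPM, a P10 ratio of 2.08 (1.51 to 2.91). That ratio was 1.50 without the mixed and lymphatic-like clusters and 9.23 after thinning, on 14 UMIs. Cenpa, the centromeric histone, stood at 26.8, 70.6 and 14.4 CPM, and Pimreg, a mitotic regulator, at 4.12, 15.4 and 0.884 CPM. All 5 genes were highest in the P10 mutant and lowest at 3 months. The lymphatic-like cells stood apart, with 10 of 14 cell cycle genes at least 2-fold higher in the P10 mutant and a median of 1.98 on 9 and 10 cells. In cluster 1, the largest and itself rich in cell cycle markers, 4 of 24 were higher and 1 lower, with a median of 0.24. There, 3% of all genes tested were higher and 2% lower.

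Single cells weighed heavily in these low counts, most of all in control members. In the P10 control, 1 cell held 37.5% of the Ccnb2 UMIs and 1 cell 38.9% of those of Cdc20. In the P10 mutant these values were 19.85% and 18.37%, and the genes were detected in 11.41% and 10.87% of members. The share of members with at least 2 UMIs over 10 cell cycle genes after thinning to 2000 UMIs was 5.60% (2.28 to 11.2%, 7 of 125) in the P10 control and 11.4% (7.08 to 17.0%, 20 of 176) in the P10 mutant. These intervals overlapped. Without thinning, the shares were 22.7% and 21.7%.

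Venous genes were mostly somewhat higher in the P10 mutant, with 11 of 13 above a ratio of 1. Among them Ackr1 alone passed 2-fold higher and none lower, with a median of 0.32 beside 0.19 in the remaining cells. By cluster, the venous median was 0.87 in the tip-like cells and 0.14 in both cluster 1 and the venous-like cells. It was -0.23 in the arterial-like cells and -0.40 in the mural-led cluster. Of 13 leukocyte adhesion genes, 8 were above a ratio of 1 and 5 below, Ackr1 again alone past 2-fold, with a median of 0.33. The median of that list was 0.38 in the venous-like cells but -0.12 in cluster 1, -0.09 in the tip-like and -0.27 in the arterial-like cells. Selp, the P-selectin that leukocytes roll on, stood at 580, 985 and 342 CPM, a P10 ratio of 1.70 (1.59 to 1.82). Vcam1, a ligand of leukocyte integrins, stood at 141, 261 and 554 CPM, a P10 ratio of 1.86 (1.62 to 2.14). The chemokine receptor Ackr1 stood at 26.8, 60.4 and 50.7 CPM, but 1 cell held 46.1% of its control UMIs and 1 cell 33.2% of those of the P10 mutant, and the direction turned at a mitochondrial limit of 5% (ratio 0.666).

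Among the remaining genes named by rule, 4 were higher in the P10 mutant. The neutrophil chemokine Cxcl1 stood at 240, 526 and 118 CPM, a P10 ratio of 2.19 (1.98 to 2.43) beside 1.01 in the remaining cells and 0.629 in macrophages. Nfil3, a transcription factor of the clock and of immune cells, stood at 47.9, 101 and 19.5 CPM, a P10 ratio of 2.12 (1.68 to 2.70) beside 1.00 in the remaining cells. Mid1, a microtubule-associated ubiquitin ligase, stood at 22.1, 52.7 and 10.9 CPM, a P10 ratio of 2.38 (1.70 to 3.41). Its ratio was 1.695 in the remaining cells, 1.71 in fibroblasts and 1.11 in macrophages, so part of this difference was also seen outside the members. Ch25h, which makes 25-hydroxycholesterol, stood at 5.66, 18.2 and 88.4 CPM and was the 1 gene of these 4 that was highest at 3 months.

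Few genes met the naming rule in the lower direction, all of them at low counts. Oasl1, an interferon-induced gene, stood at 18.0, 5.55 and 12.7 CPM, a P10 ratio of 0.308 (0.164 to 0.559). Exoc3l stood at 41.2, 19.4 and 5.90 CPM, a P10 ratio of 0.472 (0.333 to 0.664). Another 6 (A930005H10Rik, Kbtbd3, Dolk, Ang, Phyhd1 and Plcd1) had P10 ratios between 0.439 and 0.496. Their upper bounds lay under 1, but the rule had already asked for a 2-fold lower ratio. A930005H10Rik was also lower in the remaining cells (0.676), fibroblasts (0.4985) and macrophages (0.6015).

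Tip and angiogenic genes stood lower in the P10 mutant, but none by 2-fold. All but 1 of 18 were under a ratio of 1, with a median of -0.40 beside 0.06 in the remaining cells. Esm1, a proteoglycan of tip cells, stood at 236, 122 and 28.3 CPM, a P10 ratio of 0.516 (0.450 to 0.592). Dll4, the Notch ligand of tip cells, stood at 127, 77.0 and 46.0 CPM, a P10 ratio of 0.609 (0.508 to 0.729). Angpt2, the angiopoietin that loosens vessel walls, stood at 67.4, 35.4 and 86.1 CPM, a P10 ratio of 0.526 (0.406 to 0.680). Both Esm1 and Dll4 were highest in the P10 control and lowest at 3 months, whereas Angpt2 was highest at 3 months.

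Some lists rested on single cells of the P10 control. The MHC class II genes H2-Aa, H2-Ab1 and H2-Eb1 and the invariant chain Cd74 were all past 2-fold lower in the P10 mutant, but 1 control cell held 92.7% of the H2-Aa UMIs and 85.7% of those of Cd74. Of 15 antigen presentation genes tested, these 4 were lower and H2-Q6 higher, the latter on 3 and 18 UMIs. Glycolysis genes had a median of -0.39 over 18 genes, none past 2-fold, with 1 control cell holding 52.6% of the Aldoa UMIs. Fabp4, a fatty acid carrier of capillaries, stood at 344 and 228 CPM at P10, with 542 of 669 control UMIs in the cluster led by mural genes. Its P10 ratio of 0.663 (0.597 to 0.737) became 2.88 without the mixed clusters.

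The remaining lists showed few genes past 2-fold at P10. None of 16 basement membrane genes, 15 VEGF and angiopoietin genes (Flt1 of the selection rule among them), 14 BMP and TGF-beta genes, 24 interferon genes, 16 vascular tone genes or 18 respiratory chain genes passed it in either direction, and their medians lay between -0.20 and 0.04. Of 15 Notch genes, only Heyl passed, on 14 and 9 UMIs and lower. Of 11 capillary genes, 1 was higher and 2 lower. The higher one was Mfsd2a, also the 1 barrier gene past 2-fold, with a ratio of 9.28 (2.36 to 80.0) on 2 and 31 UMIs that became 1.06 after thinning, on 5 UMIs. The lower ones were Btnl9, with a ratio of 0.456 (0.279 to 0.740), and Tcf15, on 14 and 11 UMIs. Of 10 lymphatic genes, Nts and Pdpn were lower, and 1 control cell held 85.9% of the Nts UMIs. Of 15 arterial genes, Gkn3 was higher, with 68.1% of its P10 mutant UMIs in 1 cell, and Alpl lower on 14 and 7 UMIs. Meg3 and Rian, imprinted non-coding RNAs, were 2.47-fold and 3.71-fold higher, with 1 control cell holding 51.1% of the Meg3 UMIs in the P10 control.

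Tfap2e, the gene carried by the R26AP2e allele, was read in the members as a check of the labels. It gave 0 UMIs in 132 P10 control members and 71 UMIs in 46 of 184 P10 mutant members. At 3 months it gave 54 UMIs in 43 of 318 members. The limit of detection was taken as 3 UMIs over the control members, or 1.54 CPM. At 21.9 CPM the P10 mutant was 14.2-fold above that limit. The remaining cells, which include the neurons, held 10.0, 171 and 54.6 CPM. After thinning, Tfap2e was found in 3.41% and 3.28% of mutant members, in 6.94% and 2.62% of fibroblasts and in 2.63% and 1.14% of macrophages, cells that should lack it. At P10 the share in the members lay between those of macrophages and fibroblasts. At 3 months it was above both, but its interval (1.58 to 5.95%) overlapped those of fibroblasts (1.32 to 4.64%) and macrophages (0.419 to 2.46%). These shares are therefore not read as expression in the members.

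**Figure D3:**
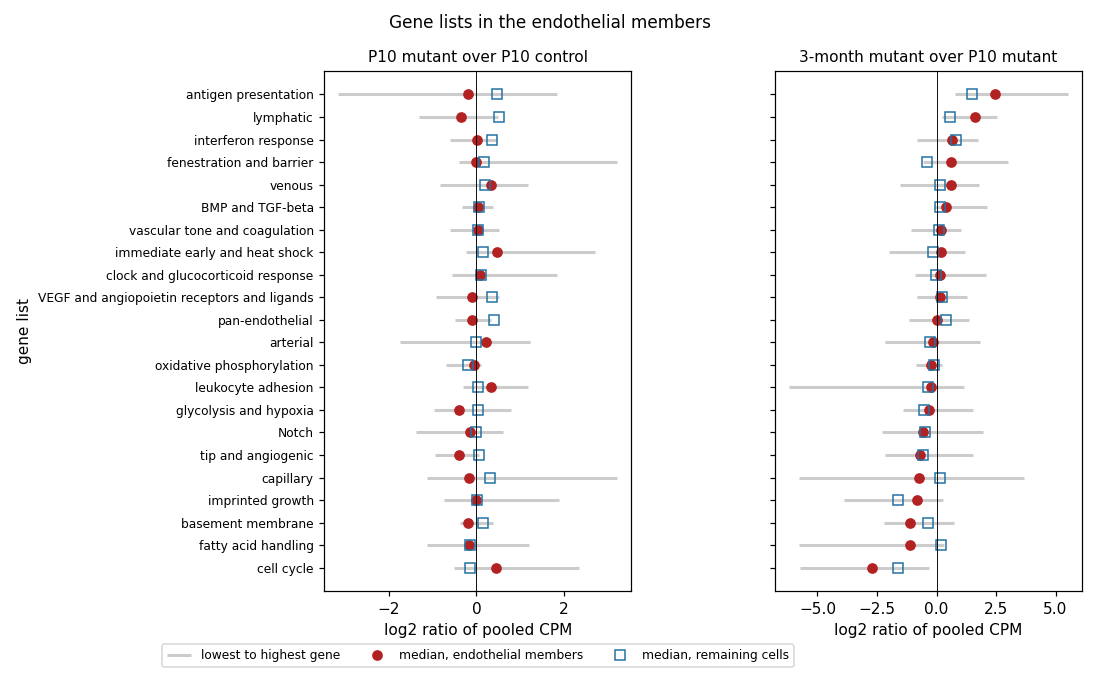
Median log2 ratio of pooled CPM for each gene list (x axis) in the members (filled points) and the remaining cells (open squares), with grey bars from the lowest to the highest gene of the list in the members; the left panel compares the P10 mutant with the P10 control and the right panel the 3-month with the P10 mutant. List medians at P10 lie between -0.40 and 0.48, and with age they run from -2.72 (cell cycle) to 2.45 (antigen presentation).

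Between P10 and 3 months, both in OMPCreR26AP2e mice, the endothelial members differed more widely. MHC genes, barrier genes and Id1 were higher at 3 months, and type IV collagen, fatty acid handling and cell cycle genes were lower. Of 11468 genes tested, 768 were at least 2-fold higher at 3 months (6.7%) and 1015 at least 2-fold lower (8.85%), with a median of -0.13. The ratios below set the 3-month mutant over the P10 mutant.

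Basement membrane genes and MHC genes are described first. The 300-base promoter windows of 4 of them (250 bases before to 50 after the RefSeq start, GRCm38) are shown because Col4a1 and Tap1 each lie in a divergent gene pair and because Tap1, H2-D1 and B2m each hold 1 of the 2 motifs searched. For Col4a1 (chr8:11312777-11313076, minus strand), capitals mark the 78 bases that overlap the window of Col4a2, whose start lies 21 bases away on the other strand. For Tap1 (chr17:34187306-34187605, plus strand), H2-D1 (chr17:35262844-35263143, plus strand) and B2m (chr2:122147437-122147736, plus strand), capitals mark matches on either strand to CCAATCAGC or to the core of the interferon-stimulated response element, GAAA repeated after any 2 bases.
Col4a1: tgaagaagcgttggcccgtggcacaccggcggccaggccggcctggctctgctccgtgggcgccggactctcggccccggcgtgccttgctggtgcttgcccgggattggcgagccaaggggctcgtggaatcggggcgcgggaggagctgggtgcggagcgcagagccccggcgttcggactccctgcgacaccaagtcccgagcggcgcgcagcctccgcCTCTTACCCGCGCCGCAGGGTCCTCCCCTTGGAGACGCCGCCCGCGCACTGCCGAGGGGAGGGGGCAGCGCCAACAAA
Tap1: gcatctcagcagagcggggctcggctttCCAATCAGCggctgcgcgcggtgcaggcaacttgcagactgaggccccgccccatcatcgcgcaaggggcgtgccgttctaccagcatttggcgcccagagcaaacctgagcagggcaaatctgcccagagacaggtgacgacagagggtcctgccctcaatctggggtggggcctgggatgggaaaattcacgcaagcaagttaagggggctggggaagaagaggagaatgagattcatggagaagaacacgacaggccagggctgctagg
H2-D1: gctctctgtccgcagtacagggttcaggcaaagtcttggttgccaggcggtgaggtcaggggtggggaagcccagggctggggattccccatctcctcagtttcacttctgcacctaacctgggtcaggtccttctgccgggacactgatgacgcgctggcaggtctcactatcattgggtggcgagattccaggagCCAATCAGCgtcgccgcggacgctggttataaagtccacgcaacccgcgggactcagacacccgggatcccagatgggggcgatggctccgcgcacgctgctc
B2m: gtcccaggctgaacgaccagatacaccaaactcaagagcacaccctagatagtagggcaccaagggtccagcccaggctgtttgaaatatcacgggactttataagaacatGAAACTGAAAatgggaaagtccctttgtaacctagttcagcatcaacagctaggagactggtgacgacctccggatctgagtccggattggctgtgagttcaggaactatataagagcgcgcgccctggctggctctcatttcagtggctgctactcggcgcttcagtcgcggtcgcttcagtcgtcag

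CCAATCAGC was found in 413 of 32851 mouse promoter windows of this length (1.26%) and in 7 of 12 antigen presentation genes with a window (58.3%), namely H2-Eb1, H2-D1, H2-T23, H2-Q6, H2-Q7, Tap1 and Psmb9. Tap1 and Psmb9 are divergent genes whose starts lie 226 bases apart, and they share a single copy. The interferon-stimulated element was found in 3.44% of all windows and in 2 of the 12, B2m (139 bases before the start) and H2-T23, and the motifs do not overlap. CCAATCAGC was in none of 13 pan-endothelial and none of 11 basement membrane windows. Both motifs were given to the search and not derived from it, and H2-Q6 and H2-Q7 are near-identical copies. Such matches describe letters only and are no finding about the members.

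Antigen presentation genes were the most uniformly higher group with age. Of 17 genes, 16 were at least 2-fold higher at 3 months and none lower, with a median of 2.45 in the members, 1.50 in the remaining cells, 3.23 in fibroblasts and 0.65 in macrophages. H2-K1, a class I heavy chain on all nucleated cells (chr17:33996017-34000347), stood at 397, 348 and 1900 CPM in the P10 control, P10 mutant and 3-month mutant, an age ratio of 5.47 (5.13 to 5.83). H2-D1, whose promoter holds the first motif 53 bases before the start, stood at 687, 585 and 2220 CPM, an age ratio of 3.79 (3.61 to 3.99). B2m, the light chain shared by class I molecules, stood at 564, 534 and 1860 CPM, an age ratio of 3.48 (3.30 to 3.67). Both P10 libraries were close to each other and far below the 3-month library in all 3 genes.

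The nonclassical class I genes H2-Q6 and H2-Q7 had the largest ratios of the list. H2-Q7 stood at 4.63, 8.63 and 399 CPM, an age ratio of 46.2 (31.8 to 69.8), and H2-Q6 at 1.54, 5.55 and 200 CPM, an age ratio of 36.0 (22.6 to 61.1). These genes are near-identical copies, so their counts are uncertain one by one. In fibroblasts the ratios were 46.3 and 79.4.

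Genes that make and carry peptides for class I were higher as well, by different amounts. Psmb9, an immunoproteasome subunit, stood at 41.7, 37.9 and 178 CPM, an age ratio of 4.70 (3.86 to 5.75). Tap1, the peptide transporter that shares its promoter, stood at 45.3, 38.2 and 66.0 CPM, an age ratio of 1.73 (1.38 to 2.17), and was the 1 gene of the list under 2-fold. Although their starts lie 226 bases apart, the intervals of the age ratios of Psmb9 and Tap1 did not overlap.

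Class II genes, usually borne by professional antigen-presenting cells, were found in members at 3 months. H2-Aa stood at 134, 15.1 and 328 CPM, an age ratio of 21.7 (16.3 to 29.5), with the P10 control value from a single cell as above. Thinned to 2000 UMIs, H2-Aa was detected in 1.60%, 2.27% and 26.9% of members, against 2.75%, 2.89% and 8.33% of fibroblasts. At 3 months the pooled level in fibroblasts was 61.0 CPM, and the largest single member held 24.9% of the 3-month UMIs. The capillary-like, lymphatic-like, cluster 8 and cluster 9 cells of that library stood at 454, 193, 283 and 237 CPM of H2-Aa. These levels are a description only, since H2-Aa is among the leading genes of the capillary-like cluster. The share at 3 months was thus above that in fibroblasts of the same library. Median depth was 8258 UMIs in these members and 9955 in these fibroblasts.

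Interferon-stimulated genes were higher by less, with 8 of 24 past 2-fold higher, none lower and a median of 0.67 beside 0.81 in the remaining cells and 1.80 in fibroblasts. Ly6a, the surface protein Sca-1, stood at 152, 210 and 651 CPM, an age ratio of 3.10 (2.84 to 3.38). The GTPase Gbp2 stood at 31.4, 37.3 and 102 CPM, an age ratio of 2.73 (2.21 to 3.38). Isg15, a classical interferon target, stood at 286, 282 and 242 CPM and was not higher.

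Basement membrane genes differed in the opposite direction. Of 16 genes, 8 were at least 2-fold lower at 3 months and none higher, with a median of -1.10 in the members, -0.35 in the remaining cells and 0.21 in fibroblasts. Col4a1 (chr8:11198423-11312826), the alpha 1 chain of type IV collagen, stood at 2832, 2354 and 516 CPM, an age ratio of 0.219 (0.208 to 0.231). Col4a2 (chr8:11312805-11449287), the chain that joins it in the heterotrimer, stood at 1643, 1337 and 351 CPM, an age ratio of 0.263 (0.246 to 0.280). In fibroblasts of the same libraries the ratios were 1.87 and 1.58, the opposite direction. The pair with the overlapping promoter windows shown above thus moved in the same direction within members and within fibroblasts. The intervals of the 2 ratios in the members did not overlap.

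Laminin and nidogen genes followed. Lamb1 stood at 371, 320 and 121 CPM, an age ratio of 0.377 (0.335 to 0.423), beside 1.12 in fibroblasts. Lama4, the alpha chain of vascular laminins, stood at 377, 328 and 132 CPM, an age ratio of 0.402 (0.359 to 0.450), and Nid1, the linker of laminin and collagen networks, at 257, 200 and 84.9 CPM, an age ratio of 0.425 (0.369 to 0.489). The collagen-binding protein Sparc stood at 4590, 4190 and 1733 CPM, an age ratio of 0.414 (0.401 to 0.427). Unlike the collagens, Sparc was also lower in fibroblasts (0.307) and macrophages (0.331). Hspg2 (perlecan) had an age ratio of 0.544 and Bgn (biglycan) of 1.16, so the list did not share a single direction.

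Type IV collagen differed between clusters of the same library, as a description only, since Col4a1 is among the leading genes of the tip-like cluster. In the P10 mutant, Col4a1 stood at 4747 CPM in the tip-like cells, 2446 CPM in the arterial-like cells, 1912 CPM in cluster 1 and 587 CPM in the venous-like cells. At 3 months it stood at 730 CPM in the capillary-like cells, 276 CPM in cluster 8 and 132 CPM in cluster 9. In the lymphatic-like cells it stood at 1320, 930 and 293 CPM in the P10 control, P10 mutant and 3-month mutant. Within this class, with 10 P10 mutant and 30 3-month cells, Col4a1 was therefore lower with age as well.

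**Figure D4:**
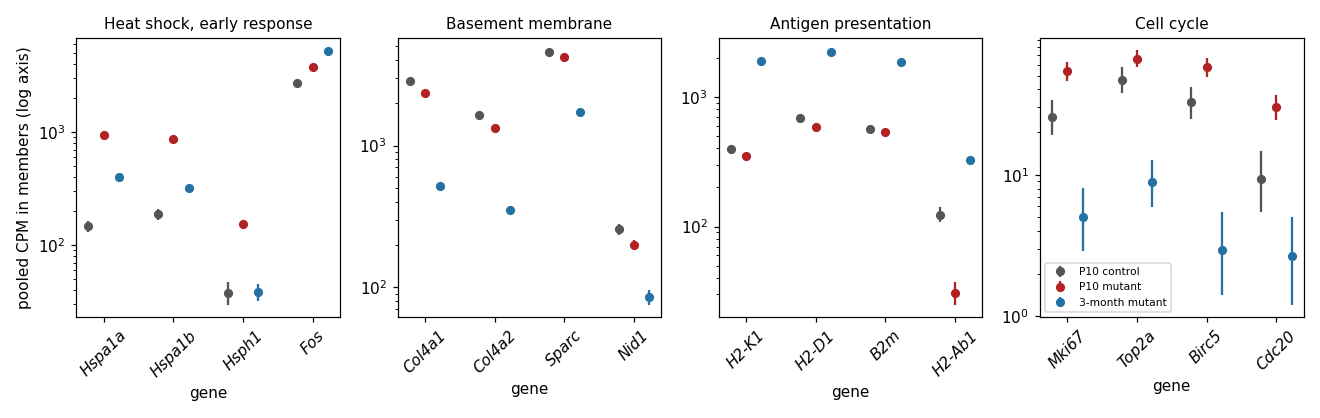
Pooled CPM in the endothelial members (log axis) of selected genes in the 3 libraries, in 4 panels; bars are exact Poisson 95% intervals and cover counting error only. The heat shock genes are highest in the P10 mutant, and at 3 months Col4a1 is at 516 CPM and H2-K1 at 1900 CPM, apart from both P10 libraries.

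Cell cycle genes were lower at 3 months. Of 24 genes, 19 were at least 2-fold lower and none higher, with a median of -2.72 beside -1.64 in the remaining cells, -3.57 in fibroblasts and -2.55 in macrophages. Mki67 had an age ratio of 0.0935 (0.0532 to 0.154) and Top2a, a topoisomerase of dividing cells, of 0.134 (0.0883 to 0.197). Of the 3-month UMIs, 1 cell held 76.5% for Mki67 and 76.7% for Top2a. After thinning, 1 of 305 members at 3 months was cycling by the definition given above, a share of 0.328% (0.0083 to 1.81%), below the interval of the P10 mutant. The P10 mutant held 11.4% by the same definition.

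Genes of sprouting and of the capillary uptake of fatty acids were also lower. Of 18 tip and angiogenic genes, 7 were at least 2-fold lower and 2 higher, with a median of -0.70 beside -0.55 in the remaining cells. Esm1 had an age ratio of 0.233 (0.184 to 0.291), and Apln, the ligand of Aplnr, stood at 120, 86.0 and 27.1 CPM, an age ratio of 0.315 (0.246 to 0.401). Marcksl1, an actin regulator, stood at 359, 340 and 75.5 CPM, an age ratio of 0.222 (0.193 to 0.254). Kdr, the receptor through which VEGF acts, stood at 494, 440 and 406 CPM, an age ratio of 0.921 (0.855 to 0.993). Angpt2 had an age ratio of 2.43 (1.95 to 3.04), against the direction of the list.

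Of 11 fatty acid genes, 6 were at least 2-fold lower and none higher, with a median of -1.13. Fabp4 stood at 228 CPM in the P10 mutant and 4.13 CPM at 3 months, an age ratio of 0.0181 (0.00983 to 0.0305). At P10, 1 mutant cell held 47.1% of the Fabp4 UMIs. Gpihbp1, which anchors lipoprotein lipase on capillaries, stood at 408, 257 and 117 CPM, an age ratio of 0.456 (0.404 to 0.514). The apelin receptor Aplnr stood at 217, 211 and 35.4 CPM, an age ratio of 0.168 (0.137 to 0.204). Capillary markers divided, with 6 of 12 at least 2-fold lower and 3 higher, the chemokine Cxcl12 among the latter at 191, 254 and 758 CPM (age ratio 2.99, 2.76 to 3.23).

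Barrier genes were higher at 3 months. Of 16 junction, diaphragm and transport genes outside the selection rule, 5 were at least 2-fold higher and none lower, with a median of 0.54. With Cldn5, a gene of the rule that the list also holds, the median was 0.62, the value of Cldn5 itself, beside -0.40 in the remaining cells. Abcb1a, the P-glycoprotein efflux pump of the blood-brain barrier, stood at 142, 133 and 536 CPM, an age ratio of 4.03 (3.62 to 4.48). Mfsd2a, a lipid transporter that limits transcytosis, stood at 1.03, 9.55 and 77.5 CPM, an age ratio of 8.12 (5.58 to 12.2). Lsr, a tricellular junction protein, stood at 17.0, 17.6 and 53.9 CPM, an age ratio of 3.07 (2.27 to 4.21). Plvap, the diaphragm protein of fenestrated vessels, stood at 725, 552 and 700 CPM, an age ratio of 1.27 (1.19 to 1.35), and was not lower where barrier genes were higher. At 3 months Abcb1a stood at 915 CPM in the capillary-like cells, 610 CPM in cluster 8, 334 CPM in cluster 9 and at 0 UMIs in the lymphatic-like cells.

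Among the signalling lists, 2 of 14 BMP and TGF-beta genes were at least 2-fold higher and none lower, with a median of 0.39. Id1, a target of BMP signalling, stood at 205, 193 and 850 CPM, an age ratio of 4.40 (4.03 to 4.80). The remaining cells (0.892) and fibroblasts (0.886) were slightly lower, whereas macrophages stood at 1.77. The ligand Bmp4 stood at 83.4, 103 and 225 CPM, an age ratio of 2.19 (1.92 to 2.50). Of 15 Notch genes, 3 were at least 2-fold lower and 1 higher, with a median of -0.55 beside -0.50 in the remaining cells. Lfng, which modifies Notch, stood at 15.4, 8.01 and 31.2 CPM, an age ratio of 3.90 (2.52 to 6.24). Of 15 VEGF and angiopoietin genes outside the selection rule, Angpt2 alone passed 2-fold, with a median of 0.09, and with Flt1 of the rule the median was 0.15.

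Vessel type markers gave a mixed account. Of 13 venous genes tested, 4 were at least 2-fold higher and 1 lower, with a median of 0.62, and the 1 lower was Selp with an age ratio of 0.347 (0.324 to 0.371). Vcam1 had an age ratio of 2.12 (1.96 to 2.31). Of 15 arterial genes, 1 was higher and 3 lower, with a median of -0.15. Clu, the secreted chaperone clusterin, was the higher one at 146, 181 and 642 CPM (age ratio 3.55, 3.24 to 3.90), and the connexin Gja5 was lower at 10.8, 10.5 and 2.36 CPM. Pan-endothelial genes had a median of 0.04, with Aqp1 and Gpr182 past 2-fold higher and Mcam lower.

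Lymphatic genes were higher over all members. Of 10 genes, 6 passed 2-fold higher and none lower, with a median of 1.60 beside 0.58 in the remaining cells. Lyve1, the hyaluronan receptor of lymphatic vessels, stood at 53.5, 41.3 and 170 CPM, an age ratio of 4.10 (3.40 to 4.99). Ccl21a stood at 481, 639 and 2180 CPM, an age ratio of 3.41 (3.25 to 3.58). Within the lymphatic-like cells alone 1 of 10 passed 2-fold, with a median of 0.67, and without these cells and the mixed clusters the list median was -0.35. The lymphatic-like cells were 5.43% of the members in the P10 mutant and 9.43% at 3 months, and the part of this in the list median was not tested apart from leaving them out.

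The lymphatic-like cells also allowed the main age differences to be read within a class, though on few P10 cells. Of 3381 genes tested here, 11.7% were at least 2-fold higher at 3 months and 10% lower. In this class 15 of 15 antigen presentation genes were higher, with a median of 3.32, and 13 of 14 cell cycle genes lower, with a median of -3.99. Basement membrane genes had a median of -0.92 with 4 of 11 lower and 1 higher. H2-K1 stood at 376, 211 and 2108 CPM in these cells. All genes tested in this class had a median of -0.03. At P10 the class held 9 and 10 cells, and at 3 months it formed a cluster of its own. The P10 cluster was led by H19, S100a8 and Ptx3. Besides 10 lymphatic markers, 19 cell cycle, 4 neutrophil and 2 macrophage markers were at least 2-fold above the other members there. With a mitochondrial limit of 5% the class held 2 P10 control, 2 P10 mutant and 19 3-month cells.

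**Figure D5:**
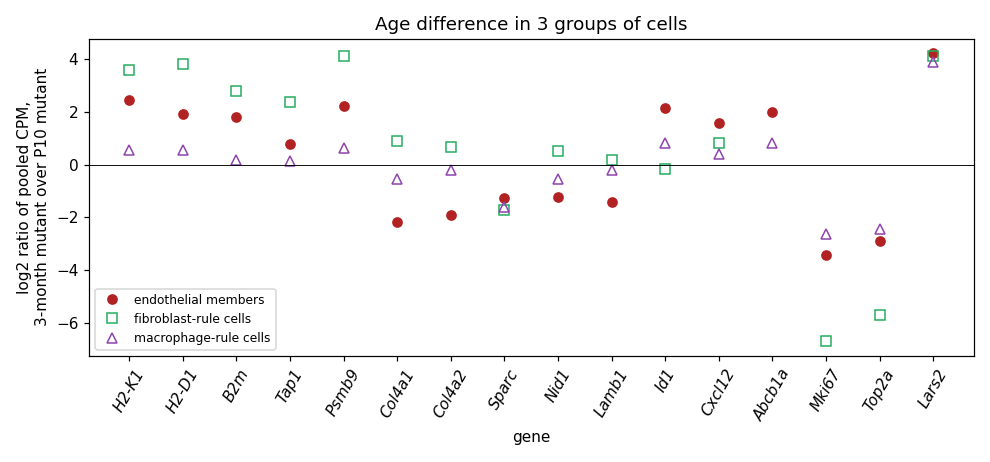
Log2 ratio of pooled CPM, 3-month over P10 mutant (y axis), of 16 genes in the endothelial members, fibroblasts and macrophages; each cell type is chosen by its own rule, and a gene with too few counts in a cell type has no point. Class I genes are higher in all 3, Col4a1 and Col4a2 are lower in members and higher in fibroblasts, and Lars2 is about equally higher in all 3.

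The genes named by rule in the higher direction included enzyme genes. Cyp2e1, a cytochrome P450, stood at 0.515, 3.70 and 142 CPM, an age ratio of 38.4 (21.8 to 74.9), and was detected in 18.6% of 3-month members. The remaining cells of the 3-month library held 1.69 CPM of Cyp2e1. Spock2, a matrix proteoglycan that leads the capillary-like cluster, stood at 7.72, 6.16 and 125 CPM, an age ratio of 20.3 (13.0 to 33.6) beside 0.934 in the remaining cells. Fmo1, a flavin monooxygenase, stood at 13.4, 4.01 and 53.1 CPM, an age ratio of 13.2 (7.55 to 25.4). Srarp, Sgpp2, Thrsp, Paqr5 and Plscr4 had ratios from 10.1 to 46.9, with Sgpp2 resting on 1 UMI in the P10 mutant.

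Lars2 and AY036118 were also named, with age ratios of 18.7 (17.0 to 20.7) and 16.2 (14.0 to 18.8). They were higher by as much in the remaining cells, at 16.7 and 16.9, and in fibroblasts, at 17.6 and 16.6. The 3-month file header gave another version of the alignment software than the P10 headers, and the part of that in the difference was not tested.

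Of the 12 genes named in the lower direction, 8 belong to the cell cycle (Ccnb2, Birc5, Ckap2, Ccna2, Tpx2, Cenpe, Mki67 and Cdc20). Madcam1, the addressin of mucosal venules, stood at 12.4, 21.6 and 0.295 CPM, the last from 1 UMI, an age ratio of 0.0137 (0.000341 to 0.0787). Pf4, a chemokine among the leading genes of the venous-like cluster, stood at 76.2, 81.4 and 6.49 CPM, an age ratio of 0.0797 (0.0491 to 0.123). In the remaining cells the age ratio of Pf4 was 1.84. C1qtnf6 stood at 65.9, 59.2 and 5.90 CPM, an age ratio of 0.0996 (0.0595 to 0.158). Gm9844 had an age ratio of 0.0315 in the members and 0.0556 in the remaining cells.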

How the data were processed

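VNOs were dissociated with papain and collagenase, and the cells were frozen, thawed and run on 10x Genomics 3' v3.1 chemistry. The authors deposited 1 filtered matrix of raw UMI counts per library, aligned to mm10. The submitters' notes list Cell Ranger 4.0.0 for all libraries, whereas the deposited file headers give 4.0.0 for both P10 libraries and 6.0.1 for the 3-month library. Total counts were 83870584, 80760046 and 70074800 UMIs in the P10 control, P10 mutant and 3-month mutant, over 8202, 8864 and 10293 barcodes, of which 4305, 3741 and 5307 were kept.

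The members and the gene lists were chosen with earlier results of these data known. UMIs were summed over the members of a library and scaled to CPM. With 1 library per group no p-value was computed. Levels carry exact Poisson, shares exact Clopper-Pearson and ratios conditional exact binomial 95% intervals (scipy 1.17.1). Genes with at least 20 UMIs over both libraries were compared, and 0 was replaced by 3 counts over the members. Cells were thinned to 2000 UMIs for shares, which left out 7, 8 and 13 members. Fibroblasts were cells with at least 20 UMIs and 1% of UMIs from Col1a1, Col1a2, Col3a1, Dcn and Lum, and macrophages those with at least 5 UMIs and 0.2% from C1q genes. Up to 12 genes per direction were named by the interval bound farthest from 1, among genes with at least 50 UMIs, a 2-fold ratio, no cell holding over 20% of the UMIs in the higher library, and a level at least that of the remaining cells there. 1 gene that met the rule is not reported here. Genes outside this rule were named with their list. Members were clustered with scanpy 1.11.5 (Leiden). The rule that named clusters was set after they were seen. Coordinates and names come from the GENCODE M21 annotation, and promoter windows from RefSeq. The scripts were tested on simulated counts with known ratios. Alternatives covered the mitochondrial, depth, rule and count limits, the scaling, thinning, and the removal of members with markers of other types.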

Additional observations from a re-analysis of the deposited data

How the results depend on the processing

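No paired analysis was possible because each group is 1 library, and for the same reason no replicate could be left out. Depth limits lowly expressed genes and small classes, down to 9 lymphatic-like control cells, and no spread between animals is known. The P10 Hspa1a ratio stayed between 6.17 and 6.90 over 12 alternatives, the age ratio of Col4a1 between 0.187 and 0.241, that of H2-K1 between 5.31 and 6.01 and that of Abcb1a between 3.50 and 6.50. The medians of the antigen presentation list with age lay between 2.23 and 2.59 over 14 alternatives and those of the basement membrane list between -1.12 and -0.96. Over all alternatives, the added ones included, 610 of 620 recomputed list medians lay within 1.5-fold of the main one, 9 moved further and 1 changed direction from beyond 2-fold. In all, 32 had the opposite sign, 2 of them where the main median was at least 0.3 from 0. Within that tolerance the P10 glycolysis median ran from -0.65 to -0.02 and the P10 lymphatic median from -0.56 to 0.08. The P10 ratio of Mki67 ran from 1.50 to 9.23 and that of Mfsd2a from 1.06 to 18.3.

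At a mitochondrial limit of 5% the endothelial share was 3.82%, 7.47% and 7.34%, the lymphatic-like share of the P10 mutant 2.17%, the P10 fatty acid median 0.74, the age lymphatic median 2.70 and the P10 Ackr1 ratio 0.666, the opposite direction. Without members holding markers of another type, the control share was 2.46%. The cycling share of the control was 13.6% when 1 UMI sufficed, and without thinning the shares were 22.7%, 21.7% and 2.83%. The numbers of genes at least 2-fold higher and lower at P10 were 533 and 527 with means of per-cell CPM, 187 and 131 after thinning, 804 and 815 with at least 5 UMIs and 53 and 36 with at least 100 UMIs. With age they were 457 and 561 after thinning, 1389 and 1665 with at least 5 UMIs and 294 and 392 with at least 100 UMIs. The UMI limits change how many genes are compared. Thinning gave an age median of -1.52 for capillary and -1.44 for cell cycle genes. For the other settings the cause was not tested.

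Removing the mixed clusters, alone or with the lymphatic-like clusters, was an alternative added after seeing the data, as was leaving the rule genes out of the lists, which moved no median beyond the tolerance. Without the mixed clusters the fatty acid median was 0.45 at P10 and -1.93 with age. Without the mixed and lymphatic-like clusters it was 0.56 and -1.90, the age capillary median was -1.35, and the age lymphatic median and the age ratio of Mmrn1 changed direction, to -0.35 and 0.705, those clusters being where lymphatic genes are read.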

Other observations

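For imprinted growth genes and clock genes, the age differences in the members were not described in the text above. The imprinted Meg3 and Rian were given there at P10 only. Of 13 imprinted genes tested, 6 were at least 2-fold lower at 3 months than in the P10 mutant and none higher, with a median log2 ratio of -0.82 beside -1.60 in the remaining cells. H19, the imprinted growth-restraining RNA, stood at 91.6, 77.4 and 5.31 CPM in the P10 control, P10 mutant and 3-month mutant, a ratio of 0.0686 (0.0400 to 0.111). Mest stood at 51.0, 51.8 and 9.73 CPM, a ratio of 0.188 (0.125 to 0.274). Igf2, the growth factor whose locus H19 shares, stood at 40.7, 29.0 and 20.3 CPM, a ratio of 0.702 (0.507 to 0.968). The lymphatic-like cells held most of this H19, at 1588, 1712 and 58.7 CPM, with 219 UMIs in 10 P10 mutant cells. Without the mixed and lymphatic-like clusters H19 was left with 6 UMIs over both libraries. Of the Igf2 UMIs at 3 months, 46 lay in the cluster led by mural genes. The Igf2 ratio ran from 0.236 to 3.61 over 12 alternatives, with the opposite direction at a mitochondrial limit of 5%, and that of H19 from 0.0304 to 0.940.

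Of 18 clock and glucocorticoid-responsive genes, 4 were at least 2-fold higher at 3 months and none lower, with a median of 0.17. Dbp, a clock output gene, stood at 27.3, 26.2 and 112 CPM, a ratio of 4.28 (3.37 to 5.48), beside 1.37 in the remaining cells and 2.84 in fibroblasts. Nr1d1, a clock repressor, stood at 14.4, 28.3 and 99.6 CPM, a ratio of 3.51 (2.78 to 4.47), beside 2.21 and 4.50. Per1 stood at 40.7, 54.2 and 46.9 CPM, a ratio of 0.864 (0.693 to 1.08). The hour at which tissue was taken was not given in the sources used here.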
